A study of Mus musculus with 24 samples.

Results

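The question here was whether the colon wall of mice with an always active NRF2 answered dextran sulfate sodium (DSS) differently from the wall of control mice. It rests on the 16 samples titled colon, of 24 in the series. All mice are given as C57Bl/6 and all carry VilCre, a Cre recombinase driven by the villin promoter, which is active in gut epithelium. The 4 groups have 4 libraries each: VilCre without treatment (control untreated), VilCre with Dextran Sulfate Sodium (control DSS), VilCre-CMVcaNrf2 without treatment (transgenic untreated) and VilCre-CMVcaNrf2 with Dextran Sulfate Sodium (transgenic DSS). The controls thus carry the Cre but not caNrf2. Each sample was a 10 mm piece of whole wall taken close to the rectum, so it held every layer and cell type, while the Cre driver acts in epithelium. The labels and file headers state no age, sex, DSS dose, duration or time of day. No label states whether the libraries of a group came from separate mice, and p-values therefore reflect the spread between libraries alone, which may be technical. The series text names 3 replicates per condition, where 4 libraries per group were used here.

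NRF2, encoded by Nfe2l2, is a transcription factor that KEAP1 normally marks for destruction. Oxidants and electrophiles free it, and it then binds antioxidant response elements and raises genes for glutathione synthesis, quinone reduction, NADPH supply and conjugate export. The caNrf2 protein lacks the part that KEAP1 binds. DSS in drinking water injures the colon lining of mice: crypts are lost, neutrophils and macrophages enter, and stroma and epithelium then repair the wall. An interaction asks whether genotype and DSS combine additively on the log scale, that is, whether the DSS effect has the same size in both genotypes.

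Depth ran from 20232317 to 154335999 counts per library. Colon epithelium markers were present in every library, with all 10 markers above 0 and summed levels of 10111 to 24358 CPM (read counts relative to library size, scaled by TMM), and all smooth muscle markers were likewise present. Markers of pancreas, a tissue that should be absent, stayed at or below 0.22 CPM summed. Erythrocyte markers summed to 8.61 to 55.4 CPM untreated, 80.1 to 9635 CPM in control DSS and 109 to 2238 CPM in transgenic DSS libraries. Nfe2l2 itself was at 99.5, 129.7, 121 and 146 CPM in control untreated and 189.7, 148, 202 and 238 CPM in transgenic untreated libraries. In DSS wall the control libraries held 148, 126, 111 and 168 CPM and the transgenic ones 186, 166, 285 and 211 CPM, overlapping narrowly. No label or header states whether reads of the transgene fall under this symbol. The library labelled transgenic untreated replicate 2 lay near control level in NRF2 target genes, and the one labelled control untreated replicate 4 lay with the transgenic libraries in several genes named below. In the NRF2 targets Gclc and Abcc2, and in Vgll3, Rfx2, Sstr1 and Per3, that control library lay with the other controls. Whether either library carries a wrong label was not resolved: each stays in its labelled group, and the untreated genotype differences and interactions hold only as far as those labels do. Replicate 4 of each wall group came from a second set of files by the number in the file names, the first set being the other 12 libraries. In whole wall, fewer cells of a type and less RNA per cell cannot be told apart.

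DSS changed a large share of genes in both genotypes, mostly in the same direction. In controls 6300 of 16074 genes passed (39.2%), with 3713 higher (23.1%) and 2587 lower (16.1%). In transgenic wall 6626 passed (41.2%), with 3710 higher (23.1%) and 2916 lower (18.1%). Both contrasts called 4587 genes, which is 72.8% of the control calls and 69.2% of the transgenic calls, and 8 of these changed in opposite directions. Across genes the DSS effects of the genotypes, which share no library, had a Pearson r of 0.85 and a Spearman rho of 0.83, with genes not being independent replicates. The median absolute DSS effect was a log2 fold change of 0.44 in controls and 0.46 in transgenic wall.

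**Figure D1:**
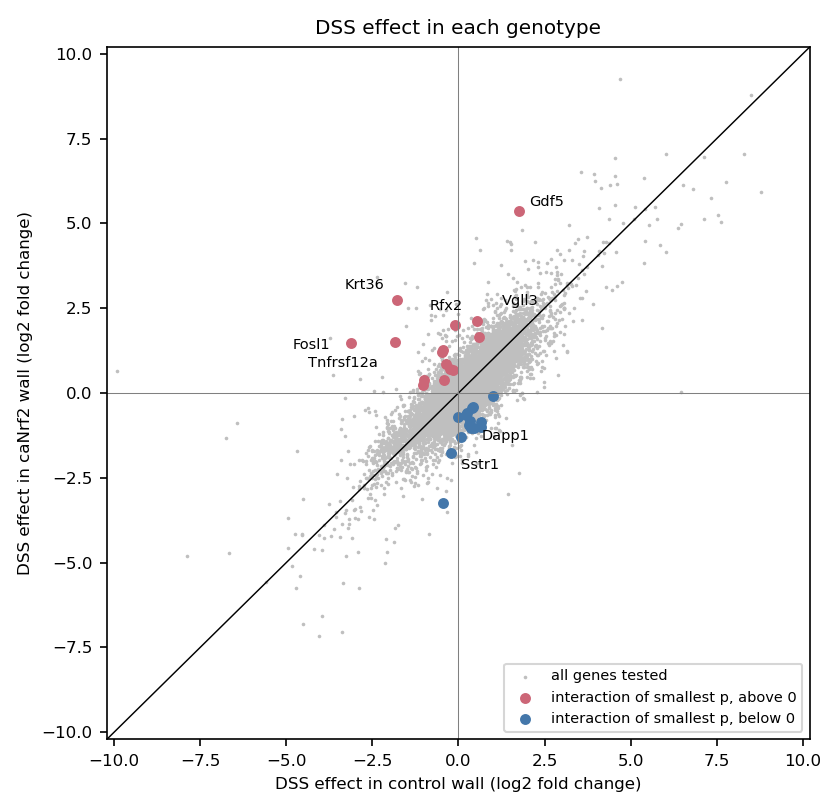
DSS effect in transgenic wall (y axis, log2 fold change) against DSS effect in control wall (x axis, log2 fold change) for all 16074 genes tested, with the line of equal effects. Red and blue points are the 15 genes of smallest interaction p above and below 0. Fosl1, Tnfrsf12a and Krt36 lie left of 0 on x and above 0 on y, and Dapp1 and Sstr1 lie below the line.

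No gene passed an adjusted p of 0.05 for the interaction in edgeR's quasi-likelihood test, which is 0% of 16074. The interaction is the DSS effect in transgenic wall minus that in controls, in log2 units, so a positive value means that a gene moved upward more, or fell less, with DSS in transgenic mice. The smallest adjusted p was 0.0685, and 4 genes were under 0.1. At an unadjusted p under 0.05 there were 1279 genes (7.96%), of which 443 lay above 0 (2.76%) and 836 below (5.2%). With DESeq2's size factors in the same test this split was 561 above and 687 below. DESeq2's own test called 36 genes, 24 above and 12 below 0, and limma's voom with sample quality weights called 113, 31 above and 82 below. These tools shared 21 genes, or 58.3% of the DESeq2 calls and 18.6% of the voom calls. Without control untreated replicate 4 edgeR called 93 genes, and with only the 12 libraries of the first file set it called 98, sharing 52 (55.9% and 53.1%). The 12-library fit also leaves out that library and uses a subset of the others, so the overlap is partly built in. Without transgenic untreated replicate 4 edgeR called 2, Dapp1 and Rfx2. Without both control untreated replicate 4 and transgenic untreated replicate 2, a setting chosen after seeing the data, it called 33. Vgll3, Rfx2, Iffo2, Dusp10, Sh3bp4, Tsc22d2, Nfatc2, Dapp1, Sstr1, Parp16, Nat2, Gm16516 and D4Wsu53e were the 13 genes called by DESeq2, by voom, without control untreated replicate 4 and in the 12-library fit. These settings share libraries, so their calls are not independent. D4Wsu53e falls outside the rule for named genes and is listed after its values were seen.

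The 4 genes nearest to the threshold shared a shape: the genotypes stood apart in untreated wall and met with DSS. In all 4, the library labelled transgenic untreated replicate 2, near control level in NRF2 target genes, lay with the other transgenic untreated libraries. Whether these differences follow the level of NRF2 targets was not tested. Vgll3, a cofactor of the TEAD transcription factors (chromosome 16, 65815633 to 65863066, plus strand, mm10), was at 4.68, 4.67, 4.53 and 4.82 CPM in control untreated and 1.93, 1.87, 2.26 and 1.99 CPM in transgenic untreated libraries. In DSS wall, Vgll3 stood at 6.86, 8.18, 6.34 and 6.00 CPM in controls and 7.45, 8.06, 10.5 and 8.7 CPM in transgenic libraries. The untreated groups did not overlap, and the DSS groups did. Vgll3 rose with DSS in both genotypes, by 0.55 ± 0.16 log2 units (SE) in controls and 2.11 ± 0.17 in transgenic wall (adjusted p = 0.0141 and 1.83e-06), and its interaction was 1.56 ± 0.23 (adjusted p = 0.0685). Rfx2, a transcription factor of ciliated cells (chromosome 17, 56775897 to 56831008, minus strand), was at 12.6, 9.38, 10.6 and 11.03 CPM in control untreated and 2.88, 2.01, 2.39 and 4.15 CPM in transgenic untreated wall. Its DSS libraries overlapped, at 10.7, 7.95, 14.2 and 7.96 CPM in controls and 9.82, 16.2, 9.02 and 11.2 CPM in transgenic mice. The DSS effect on Rfx2 was -0.10 ± 0.25 in controls and 2.02 ± 0.26 in transgenic wall, with an interaction of 2.12 ± 0.36 (adjusted p = 0.0782).

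Dapp1 and Sstr1 had the mirror image. Dapp1, an adaptor of phosphoinositide signalling (chromosome 3, 137931006 to 137981549, minus strand), was at 12.9, 11.5, 10.8 and 14.9 CPM in control untreated and 31.2, 30.3, 31.03 and 21.5 CPM in transgenic untreated libraries. With DSS the groups overlapped at 19, 16.2, 13.6 and 15.7 CPM in controls and 14.7, 15.5, 12.5 and 13.8 CPM in transgenic mice. Dapp1 fell with DSS in transgenic wall (-1.02 ± 0.16, adjusted p = 0.000224), was at 0.36 ± 0.16 in controls (adjusted p = 0.0715), and its interaction was -1.38 ± 0.22 (adjusted p = 0.0744). Sstr1, a somatostatin receptor (chromosome 12, 58211804 to 58216036, plus strand), was at 14.6, 10.7, 13.5 and 16.4 CPM in control untreated and 38.9, 27.9, 44.97 and 28.4 CPM in transgenic untreated libraries, which did not overlap. Its DSS libraries ran from 10.7 to 13.1 CPM in controls and from 8.17 to 12.1 CPM in transgenic mice. Sstr1 fell with DSS in transgenic wall (-1.76 ± 0.19, adjusted p = 3e-05), and its interaction was -1.54 ± 0.26 (adjusted p = 0.0782). Over the 10 alternative settings other than leaving out 1 library, the adjusted interaction p ran from 9.42e-08 to 0.758 for Vgll3, from 1.26e-05 to 0.453 for Rfx2, from 4.15e-05 to 0.773 for Dapp1 and from 0.000166 to 1.0 for Sstr1, and every fitted value kept its sign.

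**Figure D2:**
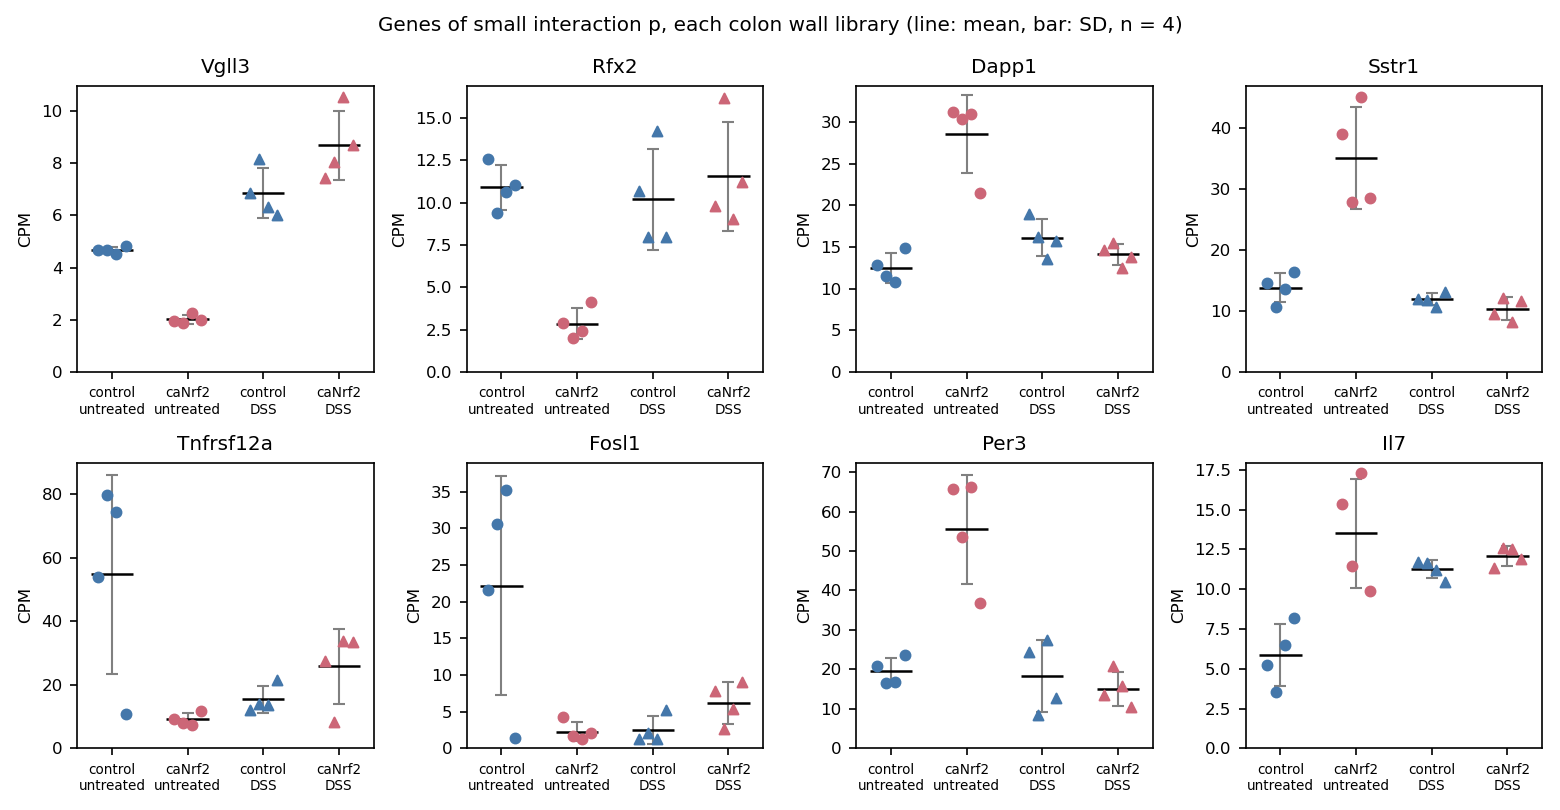
CPM (y axis, from 0) of 8 genes in each of the 16 colon wall libraries, by group, with circles for untreated and triangles for DSS libraries, blue for control and red for transgenic (caNrf2), a line for the mean and a bar for the SD of 4 libraries. In Vgll3, Rfx2, Dapp1, Sstr1 and Per3 the untreated groups are apart and the DSS groups overlap, while in Tnfrsf12a and Fosl1 1 control untreated library lies far below the other 3.

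Among the 30 genes of smallest interaction p, 15 in each direction, the genotype difference was larger in untreated than in DSS wall for 15 of the 15 genes above 0 and for 14 of the 15 below 0. The same held for 63.7% of all genes tested, so a large part of these counts is the background. Between genotypes, 9 and 6 of these genes passed in untreated wall, where 0.224% of all genes passed, and none passed in DSS wall, where 0.0933% of all genes passed. These contrasts share libraries with the interaction that chose the genes, so the counts are a description only. The untreated genotype contrast called 36 genes in all, and 320 without control untreated replicate 4. The interactions ran from 0.80 to 4.61 in the higher and from -2.80 to -0.72 in the lower genes, with adjusted p from 0.0685 to 0.364.

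The genes above 0 included signalling proteins, such as a phosphatase and secreted growth factors, and cytoskeletal and endocytic proteins. Dusp10, a phosphatase that switches off stress kinases, was at 22.98, 13.1, 23.4 and 11.5 CPM in control untreated and 7.87, 7.22, 7.22 and 7.81 CPM in transgenic untreated wall. It rose with DSS in transgenic wall, to 17.1, 12.9, 15.6 and 24.2 CPM (1.21 ± 0.23, adjusted p = 0.000897), and was at 11.7, 12.8, 13.9 and 12.7 CPM in controls with DSS (-0.47 ± 0.23). Gdf5, a ligand of the BMP family, was scarce: 0.624, 0.685, 0.37 and 0.409 CPM in control untreated and 0, 0.0392, 0.0636 and 0.0836 CPM in transgenic untreated libraries. With DSS, Gdf5 rose in both genotypes, to 0.919 to 2.26 CPM in controls and 0.802 to 3.69 CPM in transgenic wall, with an interaction of 3.62 ± 0.71 (adjusted p = 0.183) whose size depends on counts near 0. Tgfb2, a transforming growth factor, was at 19.9, 28.7, 21.5 and 10.3 CPM in control untreated and 10.3, 7.09, 7.32 and 6.22 CPM in transgenic untreated wall, where the nearest libraries of the groups were both at 10.3 CPM. It rose with DSS in transgenic wall by 1.26 ± 0.29 (adjusted p = 0.00275), against -0.44 ± 0.28 in controls (adjusted p = 0.217), and the interaction was 1.71 ± 0.40 (adjusted p = 0.36). Filip1l, an actin-associated protein, rose in both genotypes, by 0.60 ± 0.16 in controls and 1.65 ± 0.16 in transgenic wall. Sh3bp4, an endocytic adaptor, and Tsc22d2 rose in transgenic wall (0.86 ± 0.17 and 0.72 ± 0.15) and were at -0.35 and -0.24 in controls.

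Control untreated replicate 4 lay below the other controls in 5 further higher genes, as it did in Dusp10 and Tgfb2 above and Iffo2 below. Fosl1, a subunit of the AP-1 transcription factor, was at 21.6, 30.5, 35.2 and 1.41 CPM in control untreated libraries and 1.21 to 4.23 CPM in the transgenic untreated ones. Control replicate 4, at 1.41 CPM, lay with the transgenic libraries and far below the other 3 controls. With DSS, Fosl1 was at 1.32, 2.04, 1.31 and 5.24 CPM in controls and 7.77, 2.59, 5.4 and 9.06 CPM in transgenic wall. It fell with DSS in controls (-3.13 ± 0.73, adjusted p = 0.00365), was at 1.48 ± 0.70 in transgenic wall (adjusted p = 0.101), and its interaction was 4.61 ± 1.01 (adjusted p = 0.327). Tnfrsf12a, the receptor of the cytokine TWEAK, had the same split, with 53.8, 79.8, 74.5 and 10.9 CPM in control untreated and 9.13, 8.07, 7.29 and 11.9 CPM in transgenic untreated libraries. Its DSS libraries were at 12.2, 14, 13.8 and 21.6 CPM in controls and 27.6, 8.39, 33.7 and 33.4 CPM in transgenic wall, where replicate 2 was low. Nfatc2, a calcium-regulated transcription factor, was at 34.03, 38.7, 32.4 and 14.2 CPM in control untreated and 11.2 to 13.4 CPM in transgenic untreated wall. It fell with DSS in controls (-1.01 ± 0.23, adjusted p = 0.00329) and was at 0.39 ± 0.23 in transgenic wall. Krt36, a hair keratin, was at 4.82, 12.8, 28.95 and 2.25 CPM in control untreated and 1.62, 0.966, 0.668 and 1.72 CPM in transgenic untreated wall, and Lmna, which encodes lamin A, at 605, 736, 771 and 412 and 341, 338, 351 and 409 CPM. In each of these 5 genes the library labelled control untreated replicate 4 was the lowest control. Lmna fell with DSS in controls (-1.03 ± 0.21, adjusted p = 0.00168) and was at 0.24 ± 0.21 in transgenic wall.

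Of the 15 genes with a negative interaction of smallest p, 14 passed for DSS in transgenic wall and 4 in controls, where 41.2% and 39.2% of all genes passed. These counts only describe the libraries that chose the genes. Parp16, an ADP-ribosyltransferase of the endoplasmic reticulum, was at 12.1, 10.4, 9.19 and 14.6 CPM in control untreated and 24.3, 25.1, 22.6 and 17.05 CPM in transgenic untreated libraries, with no overlap. With DSS it ranged over 13.5 to 15.5 CPM in controls and 11.3 to 13.1 CPM in transgenic wall, in the opposite order and again without overlap, and its interaction was -1.17 ± 0.22 (adjusted p = 0.172). Nat2, an arylamine N-acetyltransferase, was at 15.2, 14.3, 16.9 and 17.1 CPM and 31.7, 38.9, 26.95 and 21.1 CPM in untreated control and transgenic libraries. It fell with DSS in transgenic wall (-0.95 ± 0.18, adjusted p = 0.000857), was at 0.32 ± 0.18 in controls, and its interaction was -1.27 ± 0.25 (adjusted p = 0.183). Scarf1, a scavenger receptor of endothelium, was at 4.57, 4.97, 3.55 and 4.71 CPM in control untreated and 7.29, 6.83, 7.76 and 6.13 CPM in transgenic untreated libraries, which did not overlap. It rose with DSS in controls to 9.9, 8.84, 9.56 and 6.91 CPM (0.99 ± 0.17, adjusted p = 0.000693) and was at 6.5, 7.89, 6.2 and 5.68 CPM in transgenic wall (-0.09 ± 0.17), with an interaction of -1.08 ± 0.25 (adjusted p = 0.36). The 1 gene whose genotype difference was not larger in untreated wall was 2010010A06Rik, with 1.36 ± 0.37 in untreated and -1.44 ± 0.44 in DSS wall, with an interaction of -2.80 ± 0.57 (adjusted p = 0.183). Ddit4l, an inhibitor of mTOR signalling, fell with DSS in transgenic wall (-0.99 ± 0.27, adjusted p = 0.00794), was at 0.65 ± 0.27 in controls, and had an interaction of -1.65 ± 0.38. Sema6a, a guidance protein, Pias2, a SUMO ligase, Zfp558, a zinc finger protein, Tcta and Gm16516 fell with DSS in transgenic wall and did not pass in controls, with interactions of -0.85, -0.72, -1.38, -0.84 and -1.47. Tmem43, a nuclear envelope protein and the last of the 15 higher genes, rose in transgenic wall (0.67 ± 0.14) and was at -0.16 ± 0.14 in controls.

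The 8 genes called in both genotypes with opposite signs were Rnf183, Tnfrsf12a and Iffo2, which fell in controls and rose in transgenic wall, and Fam23a, Cdc14b, Ell2, Atg14 and BC017643, which rose in controls and fell in transgenic wall. Rnf183, a ubiquitin ligase, was at 4.44, 8.78, 11.1 and 0.609 CPM in control untreated and 1.35, 0.633, 1.75 and 1.42 CPM in transgenic untreated libraries, again with control replicate 4 lowest. DSS libraries of Rnf183 held 1.62, 3.5, 1.56 and 1.96 CPM in controls and 3.64, 3.81, 5.91 and 6.75 CPM in transgenic wall, which did not overlap. Its DSS effects were -1.51 ± 0.58 and 1.99 ± 0.60 (adjusted p = 0.049 and 0.0149), and its interaction was 3.50 ± 0.83 (adjusted p = 0.364). Iffo2, an intermediate filament family protein, had small but well separated shifts in untreated wall: 48, 43.3, 44.5 and 38.7 CPM in control untreated, 26.3, 26.2, 27.7 and 31.2 CPM in transgenic untreated, 33.1, 31.8, 30.9 and 35.7 CPM in control DSS and 36.4, 35.5, 39.9 and 34.1 CPM in transgenic DSS libraries. The effects on Iffo2 were -0.41 ± 0.11 and 0.39 ± 0.11 (adjusted p = 0.00699 and 0.00849), and the interaction was 0.80 ± 0.15 (adjusted p = 0.172). Fam23a went from 108, 56.5, 103 and 137 CPM to 207, 174, 107 and 155 CPM with DSS in controls and from 184, 219, 244 and 139.9 CPM to 97.6, 122, 120.4 and 98.8 CPM in transgenic wall. Ell2, an elongation factor, and Atg14, an autophagy protein, had interactions of -0.84 ± 0.20 and -0.84 ± 0.20 (adjusted p = 0.364 and 0.364). The DSS calls of several of these genes were near the threshold, such as BC017643 in transgenic wall (adjusted p = 0.0499), and none of the 8 passed for the interaction.

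The circadian clock list, which holds core oscillator genes and their outputs, had several genes at an unadjusted p under 0.05: 6 of 18 genes (33.3%, against 7.96% of all genes), 1 above and 5 below 0. Its median interaction was -0.09, with 9 members on each side of 0, against a median of 0 over all genes tested. Per3, a period gene that represses the clock, was at 20.8, 16.6, 16.8 and 23.8 CPM in control untreated and 65.8, 53.5, 66.1 and 36.8 CPM in transgenic untreated libraries, which did not overlap. Under DSS it stood at 24.5, 8.57, 27.4 and 12.8 CPM in controls and 13.5, 20.8, 15.7 and 10.5 CPM in transgenic wall. Per3 fell with DSS in transgenic wall (-1.88 ± 0.32, adjusted p = 0.000433) and was at -0.10 ± 0.31 in controls, and the interaction was -1.78 ± 0.44 (adjusted p = 0.364). Nfil3, a repressor that acts opposite to the PAR bZIP activators, ran the other way: 10.9, 18.03, 9.81 and 6.93 CPM in control untreated and 1.89, 2.47, 1.21 and 2.87 CPM in transgenic untreated libraries. It rose with DSS in both genotypes, to 13.6, 23.4, 17.8 and 76.1 CPM in controls and 78.3, 24.6, 18.04 and 40.2 CPM in transgenic wall, with an interaction of 2.69 ± 0.75 (adjusted p = 0.435). With 1 library left out, the DSS effect on Nfil3 in controls ranged over 0.69 to 1.83 and did not pass in 4 of 16 fits. Hlf, one of those activators, rose with DSS in controls (1.23 ± 0.28, adjusted p = 0.0031), with 3.21 to 6.3 CPM untreated and 7.72 to 16.3 CPM treated, and was at 0.15 ± 0.27 in transgenic wall, where untreated libraries already held 8.16 to 15.97 CPM. Since no label states the time of day of sampling, its part in these values was not tested.

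Several NRF2 target genes, such as Gclc and Abcc2, stood higher in transgenic than in control libraries with DSS too, and no interaction passed. Gclc, the catalytic chain of glutamate cysteine ligase, was at 86.8, 107, 69.8 and 75.8 CPM in control untreated and 735, 104, 693 and 381 CPM in transgenic untreated libraries. After DSS the level of Gclc was 72.1, 70.4, 44.6 and 77.2 CPM in controls and 315, 529, 630.4 and 847 CPM in transgenic wall, without overlap (genotype difference 3.13 ± 0.45, adjusted p = 0.0238). The untreated groups overlapped at the library labelled transgenic replicate 2, which held 104 CPM. The Gclc interaction was 0.64 ± 0.59 with a 95% interval of -0.62 to 1.89 (adjusted p = 0.913). Slc7a11, which brings cystine into the cell, had an interaction of -0.01 ± 0.69 with an interval of -1.47 to 1.46, an interval wide on both sides of 0. Its genotype difference was 2.67 ± 0.52 untreated and 2.66 ± 0.52 with DSS (adjusted p = 0.0449 and 0.0804). Abcc2, an efflux pump for glutathione conjugates, was at 3.93, 4.32, 2.98 and 3.23 CPM in control untreated and 114, 6.21, 105 and 77.8 CPM in transgenic untreated libraries. With DSS Abcc2 was at 3.74, 5.11, 8.2 and 4.1 CPM in controls and 25.1, 46.4, 50.01 and 67.7 CPM in transgenic wall, and its interaction was -1.22 ± 0.78 with an interval of -2.86 to 0.42 (adjusted p = 0.8). Hmox1, which breaks down heme, had an interaction of -0.11 ± 0.61 (-1.40 to 1.18), and Nfe2l2 itself -0.03 ± 0.27 (-0.60 to 0.54).

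**Figure D3:**
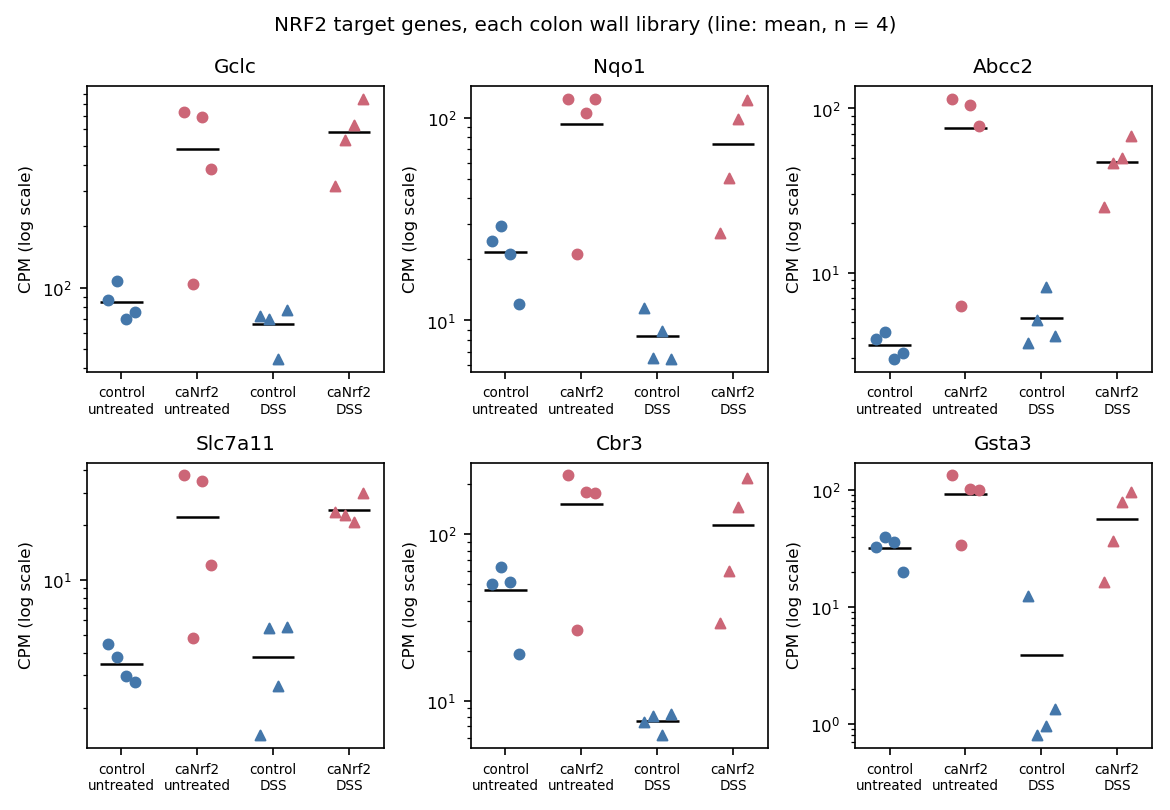
CPM on a log scale (y axis) of 6 NRF2 target genes in each of the 16 colon wall libraries, by group, with a line for the mean of 4 libraries. Transgenic libraries (red) lie above the control libraries (blue) of the same treatment in each gene, apart from the untreated library labelled replicate 2, which lies within or near the control range, and control levels of Cbr3 and Gsta3 are lower with DSS than without.

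Most interactions of the glutathione and antioxidant lists lay above 0. Of 28 genes for glutathione synthesis and conjugation, 25 had an interaction above 0 (50.2% of all genes did), with a median of 0.24 and 2 at an unadjusted p under 0.05. With DSS, 13 of the 28 fell and none rose in controls, and 7 fell and none rose in transgenic wall, where 16.1% and 18.1% of all genes fell. Of 18 quinone, thioredoxin, heme and iron antioxidant genes, 14 had an interaction above 0 (median 0.34), and 3 fell with DSS in controls and none passed in transgenic wall. Without transgenic DSS replicate 1 the medians were 0.45 and 0.53, with 6 genes of each list at an unadjusted p under 0.05. Without transgenic DSS replicate 4 they were 0.10 and 0.18, with 18 of 28 and 13 of 18 above 0 and 1 gene of each at that p. In the 12 libraries of the first file set the medians were 0.16 and 0.14. Between genotypes, 3 of the 28 glutathione genes passed in untreated wall and 3 in DSS wall. Of the 18 antioxidant genes 0 and 2 did, where 0.224% and 0.0933% of all genes passed. With voom and in the first file set, no gene passed between genotypes in DSS wall. Gpx2, the glutathione peroxidase of gut epithelium, was at 693, 1071, 753 and 297 CPM in control untreated and 609, 546, 541 and 561 CPM in transgenic untreated libraries, which overlapped. In DSS wall, Gpx2 stood at 256, 169.5, 102 and 144 CPM in controls and 317, 251, 350.4 and 375 CPM in transgenic wall. Gpx2 fell in both genotypes, by 2.07 ± 0.31 log2 units in controls and 0.80 ± 0.30 in transgenic wall, with an interaction of 1.26 ± 0.43 (adjusted p = 0.478). With 1 library left out, the fall of Gpx2 passed in all 16 fits in controls and in 6 of 16 in transgenic wall. Cbr3, a carbonyl reductase, fell with DSS in controls from 50.5, 63.8, 52.1 and 19.1 CPM to 7.42, 8.11, 6.19 and 8.34 CPM (-2.62 ± 0.61, adjusted p = 0.00367). In transgenic wall Cbr3 was at 226, 26.5, 180.1 and 179 CPM untreated and 29.2, 60.6, 146 and 218 CPM with DSS (-0.43 ± 0.57), which overlapped, and its interaction was 2.19 ± 0.82 (adjusted p = 0.521). Nqo1, a quinone reductase, fell in controls (-1.38 ± 0.49, adjusted p = 0.0352), with 12.1 to 29.2 CPM untreated and 6.47 to 11.5 CPM treated. In transgenic wall Nqo1 was at 21.4 to 124 CPM untreated and 27.02 to 123 CPM with DSS, with an interaction of 1.05 ± 0.68 (-0.38 to 2.49). The 6 genes of NADPH production had 5 interactions above 0 (median 0.28), none at an unadjusted p under 0.05. Among 41 drug metabolism and efflux genes 17 were above 0 (median -0.02), and Cyp2c65, a cytochrome P450, and Abcb1a, an efflux pump, lay below 0 at an unadjusted p under 0.05 (-1.01 ± 0.34 and -0.74 ± 0.34).

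Gsta3, an alpha class glutathione S-transferase, had the largest interaction of the glutathione list. It was at 32.7, 40.03, 35.8 and 19.98 CPM in control untreated and 12.5, 0.795, 0.956 and 1.34 CPM in control DSS libraries, where replicate 1 lay far above the other 3. In transgenic wall it was at 133, 33.6, 102 and 99.2 CPM untreated and 16.4, 36.6, 78.5 and 95.9 CPM with DSS. Gsta3 fell with DSS in controls (-3.04 ± 0.77, adjusted p = 0.00593), was at -0.69 ± 0.70 in transgenic wall, and its interaction was 2.34 ± 1.01 (adjusted p = 0.585). Without 1 library in turn the interaction ranged from 1.99 to 4.25. The 250 bases before the start of Gsta3 (RefSeq on GRCm38.p6, chr1:21240335-21240584, plus strand) and of Gclm, the modifier subunit of glutamate cysteine ligase (chr3:122245307-122245556, plus strand, chosen after its values were seen), are shown because each holds the core of the antioxidant response element, TGACNNNGC on either strand, in capitals.
Gsta3: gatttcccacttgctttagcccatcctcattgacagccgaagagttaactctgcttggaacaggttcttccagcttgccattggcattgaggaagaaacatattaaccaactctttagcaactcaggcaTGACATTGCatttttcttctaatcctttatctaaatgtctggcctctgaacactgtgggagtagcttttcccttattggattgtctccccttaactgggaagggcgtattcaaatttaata
Gclm: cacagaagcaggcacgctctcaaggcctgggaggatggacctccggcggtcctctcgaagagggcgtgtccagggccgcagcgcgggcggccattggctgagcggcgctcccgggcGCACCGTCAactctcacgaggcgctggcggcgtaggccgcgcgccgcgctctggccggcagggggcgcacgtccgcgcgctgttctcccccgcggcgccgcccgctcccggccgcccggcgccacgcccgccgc
This core was present in 9 of 40 glutathione and antioxidant genes with a promoter entry (22.5%) and in 13.9% of 11271 tested genes with one. A match is a stretch of letters and not a measured binding site. It starts 121 bases before the Gsta3 start and 134 before the Gclm start, where it reads on the opposite strand. It can share bases with the AP-1 motif, TGANTCA, which 17.5% of the same 40 promoters and 6.24% of all promoters held. Gclm had an interaction of 0.25 ± 0.52 (adjusted p = 0.986).

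Genes of the type I interferon response, which viral nucleic acids and interferon receptors switch on, rose with DSS and had interactions mostly below 0. Of 24 genes, 23 rose with DSS in controls and 11 in transgenic wall, against 23.1% of all genes in each genotype. None fell in either. The median DSS effect of the list was 1.53 in controls and 0.74 in transgenic wall. The interaction was below 0 for 22 of 24, with a median of -0.60 and 5 genes at an unadjusted p under 0.05, or 20.8%, where 5.2% of all genes lay below 0 at that p. In the 12 libraries of the first file set, 18 of 24 lay below 0, the median was -0.26 and none was at an unadjusted p under 0.05. None was at that p with all 24 libraries in the fit either (median -0.54), and 9 were without transgenic DSS replicate 1 (median -0.88). The list score, the median log2 CPM of its genes, ranged over 2.52 to 3.0 in control untreated and 3.06, 3.02, 3.05 and 3.45 in transgenic untreated libraries. With DSS it was 3.55, 3.96, 4.97 and 4.50 in controls and 4.31, 4.02, 3.12 and 3.45 in transgenic wall, so the DSS groups overlapped.

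Ifit1, an interferon-induced protein that binds viral RNA, was at 6.39, 2.91, 4.99 and 3.45 CPM in control untreated and 6.88, 8.16, 9.13 and 17.2 CPM in transgenic untreated wall. DSS libraries of Ifit1 held 11.7, 16.04, 42.4 and 29.5 CPM in controls and 20.8, 16.95, 5.98 and 8.54 CPM in transgenic wall. Ifit1 rose with DSS in controls (2.48 ± 0.46, adjusted p = 0.000878), was at 0.33 ± 0.44 in transgenic wall (adjusted p = 0.557), and its interaction was -2.15 ± 0.62 (adjusted p = 0.445). Ifit3, its partner, rose in both genotypes, by 2.25 ± 0.37 in controls and 0.94 ± 0.35 in transgenic wall (adjusted p = 0.000399 and 0.0422). Its control libraries held 3.64 to 5.86 CPM untreated and 11.7 to 45.6 CPM with DSS, and its transgenic ones 6.85 to 11.8 and 9.51 to 21.4 CPM. Usp18, which removes the ubiquitin-like ISG15 from proteins, was at 2.08, 3.64, 7.6 and 8.05 CPM in control DSS and 4.96, 4.35, 2.29 and 0.795 CPM in transgenic DSS libraries, and at no more than 2.22 CPM in any untreated library. Its interaction was -1.76 ± 0.67 (adjusted p = 0.542). Isg15 itself, chosen after its values were seen, had DSS effects of 2.32 ± 0.47 and 0.89 ± 0.45 and an interaction of -1.43 ± 0.64 (adjusted p = 0.599).

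The 250 bases before the starts of Ifit1 (chr19:34640639-34640888, plus strand), Ifit3 (chr19:34583279-34583528, plus strand) and Isg15 (chr4:156200819-156201068, minus strand), from RefSeq on GRCm38.p6, are shown because they carry the interferon-stimulated response element that marks this group. Capitals mark each match to GAAA, any 2 bases and GAAA, on either strand.
Ifit1: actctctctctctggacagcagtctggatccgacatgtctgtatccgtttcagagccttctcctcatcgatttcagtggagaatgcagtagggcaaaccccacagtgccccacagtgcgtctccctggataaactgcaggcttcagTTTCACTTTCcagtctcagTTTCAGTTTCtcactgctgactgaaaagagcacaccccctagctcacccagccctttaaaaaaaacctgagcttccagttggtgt
Ifit3: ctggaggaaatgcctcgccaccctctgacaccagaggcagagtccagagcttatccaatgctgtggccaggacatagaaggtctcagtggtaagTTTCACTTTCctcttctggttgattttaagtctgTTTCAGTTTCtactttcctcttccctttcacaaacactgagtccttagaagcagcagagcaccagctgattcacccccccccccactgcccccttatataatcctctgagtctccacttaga
Isg15: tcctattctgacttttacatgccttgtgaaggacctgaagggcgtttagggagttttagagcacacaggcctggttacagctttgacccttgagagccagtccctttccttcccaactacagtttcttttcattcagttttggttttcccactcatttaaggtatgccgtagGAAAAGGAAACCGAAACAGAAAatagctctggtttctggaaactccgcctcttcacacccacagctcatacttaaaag
Ifit1 and Ifit3 hold 2 matches each and Isg15 holds 3 that run into each other. The motif was in 8 of 17 interferon list promoters (47.1%) and in 3.26% of all 11271. It was in none of the 12 promoters of the 15 higher genes and none of the 7 promoters of the 15 lower genes of smallest p.

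Macrophage genes also rose with DSS and had interactions below 0. All 20 genes of the monocyte and macrophage list rose with DSS in controls and 18 rose in transgenic wall, with median effects of 1.77 and 1.13. Of all genes, 23.1% rose in each genotype. The interaction was below 0 for 20 of 20, with a median of -0.63, and 1 gene was at an unadjusted p under 0.05. That count rests partly on control DSS replicate 4: without it 13 of 20 lay below 0 and the median was -0.23, as it was in the first file set with 14 of 20. Without control DSS replicate 1 or 3, 5 and 7 genes were at an unadjusted p under 0.05. The list score was 3.63, 4.55, 3.19 and 5.49 in control DSS and 4.47, 4.45, 3.54 and 3.77 in transgenic DSS libraries, with control replicate 4 highest, and 2.54, 1.99, 2.69 and 2.65 and 3.06, 3.01, 3.20 and 2.73 in the untreated groups, where every transgenic library lay above every control. Ms4a7, a macrophage membrane protein, was at 11.95, 21.9, 6.14 and 43.6 CPM in control DSS and 14.8, 15.6, 10.02 and 11.6 CPM in transgenic DSS libraries, and its interaction was -1.35 ± 0.62 (adjusted p = 0.611). T cell and cytotoxic genes had 14 of 17 interactions below 0 (median -0.22), with 9 rising in controls, 5 in transgenic wall and none at an unadjusted interaction p under 0.05. Without transgenic untreated replicate 2, or without transgenic DSS replicate 4, 9 of 17 lay below 0 (medians -0.08 and -0.07). Over all settings the median of this list ranged over -0.51 to -0.06.

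**Figure D4:**
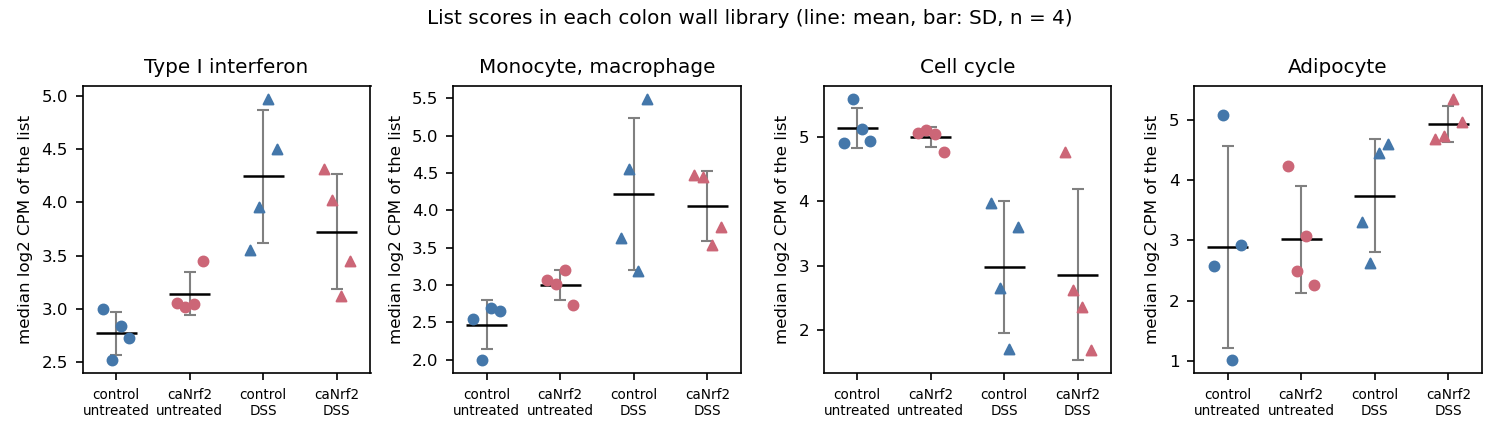
List score (y axis, median log2 CPM of the list's tested genes) of 4 gene lists in each of the 16 colon wall libraries, by group, with a line for the mean and a bar for the SD of 4 libraries. The DSS groups overlap for interferon, macrophage and cell cycle genes. In the cell cycle list transgenic DSS replicate 1 (4.76) lies far above the other 3, and in the adipocyte list control untreated replicate 2 (5.08) lies far above the other 3 controls.

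Neutrophil genes rose in both genotypes, 14 of 16 in controls and 13 in transgenic wall, against 23.1% of all genes in each. Their median effects were 2.80 and 2.88, and the median interaction was 0.27. That median rested on single libraries: it was -0.08 without transgenic DSS replicate 1, 0.02 without control DSS replicate 1, 0.73 without control DSS replicate 4 and 1.0 in the first file set. S100a8 and S100a9, which form the neutrophil protein calprotectin, were scarce in untreated wall and rose with DSS in both genotypes. S100a9 was at 0.797, 0.385, 0.37 and 0.157 CPM in control untreated and 0.18, 0.131, 0.0636 and 0.0836 CPM in transgenic untreated libraries, and at 2.6, 9.75, 14.5 and 12.6 and 15.4, 11.2, 4.74 and 7.75 CPM with DSS. Its interaction was 1.85 ± 0.80 (adjusted p = 0.593), and that of S100a8 was 2.37 ± 0.95 (adjusted p = 0.563). Among 37 cytokines and chemokines 24 interactions lay above 0 (median 0.41) with 4 at an unadjusted p under 0.05, and without transgenic DSS replicate 1 16 lay above 0 and the median was -0.33. Without control DSS replicate 4 the median was 1.08, so 1 library set the sign of this list. Il7, a growth factor of lymphocytes made by epithelium and stroma, had an interaction of -1.09 ± 0.31 (adjusted p = 0.435). It was at 5.22, 3.55, 6.49 and 8.16 CPM in control untreated and 15.3, 11.5, 17.3 and 9.91 CPM in transgenic untreated libraries, and both genotypes reached 10.5 to 11.7 and 11.3 to 12.6 CPM with DSS. Il7 rose with DSS in controls (0.93 ± 0.22, adjusted p = 0.00388) and was at -0.16 ± 0.22 in transgenic wall.

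Ccl2 and Ccl7, chemokines that draw monocytes, lay above 0. Ccl7 was at 2.24, 5.18, 1.52 and 0.783 CPM in control untreated and 0.36, 0.202, 0.191 and 0.234 CPM in transgenic untreated libraries, which did not overlap. Under DSS it stood at 2.57, 2.54, 2.87 and 16.6 CPM in controls and 12.4, 2.29, 2.46 and 3.93 CPM in transgenic wall, each group with 1 high library. Ccl7 rose with DSS in transgenic wall (4.48 ± 0.84, adjusted p = 0.000836), was at 1.40 ± 0.70 in controls, and its interaction was 3.08 ± 1.06 (adjusted p = 0.478). Ccl2 had 2.62, 6.12, 1.61 and 0.687 CPM in control untreated, 0.315, 0.144, 0.382 and 0.301 CPM in transgenic untreated, 2.27, 2.48, 1.51 and 24.2 CPM in control DSS and 12.8, 2.82, 2.48 and 4.33 CPM in transgenic DSS wall. The Ccl2 interaction was 2.88 ± 1.25 (adjusted p = 0.592). The interferon-gamma GTPase and MHC class I list rose in both genotypes, with 21 of 25 genes in controls and 20 in transgenic wall (23.1% of all genes in each). Its median interaction was 0.11 (-0.18 without transgenic DSS replicate 1), with none at an unadjusted p under 0.05. MHC class II and dendritic cell genes had a median of -0.10 over 15 genes. B and plasma cell genes had 12 of 15 interactions above 0 (median 0.42), none of them at an unadjusted p under 0.05. In the first file set 8 of 15 lay above 0 and the median was 0.07. Tnfrsf17, a survival receptor of plasma cells, and Igj, the immunoglobulin joining chain, were 2 of the 3 members below 0 (-1.74 ± 0.63 and -1.58 ± 0.64, adjusted p = 0.514 and 0.565). They were the 2 members at an unadjusted p under 0.05 (13.3%, against 7.96% of all genes).

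Immediate early and heat shock genes, which answer stress early, had 13 of 20 interactions above 0 (50.2% of all genes did) and a median of 0.30. At an unadjusted p under 0.05 there were 3 (15%, against 7.96% of all genes): Hspa1a, its near-identical neighbour Hspa1b, and Jund. Without control DSS replicate 4, whose list score of 8.74 stood above 7.04, 5.64 and 6.51 in the other controls with DSS, 19 of 20 lay above 0, the median was 1.11 and 9 were at an unadjusted p under 0.05. In that fit 1268 of all 16096 genes tested were at that p. Hspa1a, an inducible HSP70 with a near-identical neighbour gene that makes its estimated counts uncertain, was at 42.4, 72.6, 39.8 and 24.3 CPM in control untreated and 18.8, 12.4, 17.2 and 19.5 CPM in transgenic untreated libraries, without overlap. It rose with DSS in transgenic wall to 38.3, 36.9, 79.9 and 62.5 CPM (1.68 ± 0.35, adjusted p = 0.00155) and was at 71.2, 29.4, 39.7 and 70.9 CPM in controls with DSS (0.24 ± 0.34), with an interaction of 1.44 ± 0.48 (adjusted p = 0.47). Jund, an AP-1 subunit, was at 396, 447, 695 and 397 CPM in control untreated and 263, 269.7, 171 and 284 CPM in transgenic untreated wall, and its interaction was 1.13 ± 0.42 (adjusted p = 0.523). The unfolded protein and ATF4 list had a median of 0.09 with none at an unadjusted p under 0.05. Among p53 targets Sesn1 lay below 0 (-1.02 ± 0.39) and Aen, a nuclease, above (0.55 ± 0.25), with a list median of -0.10.

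Epithelial wound and keratin genes had 6 and 5 interactions at an unadjusted p under 0.05, with genes on both sides of 0. Of all genes, 7.96% were at that p. The fetal-like and wound epithelium list had 6 of 16 (37.5%), 4 above and 2 below 0, with a median of 0.44 and median DSS effects of 0.31 in controls and 1.40 in transgenic wall. The keratin and cornified envelope list had 5 of 13 (38.5%), 4 above and 1 below 0, with a median of 0.29, and 13 of its 23 genes passed the filter on low counts. The keratin count depended on the setting: it was 1 of 13 with voom and 1 of 7 with a filter of at least 1 CPM in at least 4 libraries. Krt16, a keratin of injured squamous epithelium, was at 1.77, 1.07, 0.93 and 1.22 CPM in control untreated and 0.0613, 0.25, 0.252 and 0.134 CPM in control DSS libraries, and fell (-2.85 ± 0.70, adjusted p = 0.00509). In transgenic wall it was at 0.72, 0.444, 0.127 and 0.0501 CPM untreated and 0.623, 0.0663, 0.243 and 0.795 CPM with DSS, and its interaction was 3.27 ± 0.98 (adjusted p = 0.464). Markers of squamous epithelium summed to 2.54 to 7.78 CPM in control untreated and 2.69 to 5.71 CPM in transgenic untreated libraries, and 4.63 to 8.72 and 5.74 to 10.2 CPM with DSS; their part in the keratin values was not tested. Krt6a, a partner of Krt16, and Ankrd1, a muscle and wound ankyrin repeat protein, also lay above 0 (5.35 ± 1.75 and 2.27 ± 0.75), with no library above 3.61 CPM for Krt6a and 5.3 CPM for Ankrd1, and Krt6a counts in both lists. Il1rn, which encodes the IL-1 receptor antagonist, lay below 0 (-0.95 ± 0.33, adjusted p = 0.478): it rose with DSS in controls (0.77 ± 0.23) and was at -0.19 ± 0.23 in transgenic wall.

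More crypt genes fell than rose with DSS in both genotypes. Of 21 crypt stem cell and Wnt target genes 11 fell in controls and 9 in transgenic wall, where 16.1% and 18.1% of all genes fell. The median interaction of the list was 0.32. Lgr5, the receptor that marks crypt stem cells, went from 7.36, 9.68, 5.32 and 8.08 to 0.368, 0.545, 0.352 and 0.535 CPM in controls and from 10.4, 9.63, 9.67 and 5.93 to 0.553, 0.697, 0.267 and 0.437 CPM in transgenic wall. It fell by 4.04 ± 0.31 and 4.19 ± 0.31 log2 units (adjusted p = 1.2e-06 and 6.41e-07), and its interaction was -0.15 ± 0.41 with a 95% interval of -1.03 to 0.72. Myc, a growth-promoting Wnt target, fell in both genotypes (-2.07 ± 0.33 and -1.04 ± 0.32), with an interaction of 1.03 ± 0.45 (adjusted p = 0.597). Lef1, a transcription factor of Wnt signalling, lay at the other end of the list (-1.61 ± 0.69, adjusted p = 0.583), with 0.343 to 1.17 CPM in control untreated, 0.63 to 2.96 CPM in transgenic untreated, 0.704 to 1.82 CPM in control DSS and 0.278 to 0.997 CPM in transgenic DSS libraries. Myc and Lef1 were the 2 members at an unadjusted p under 0.05. All 26 cell cycle and replication genes fell in controls and 16 in transgenic wall, against 16.1% and 18.1% of all genes. All 26 interactions lay above 0, with a median of 0.46 and none at an unadjusted p under 0.05. Without transgenic DSS replicate 1, 5 of 26 lay above 0 and the median was -0.38. Mki67, a marker of dividing cells, was at 182, 34.3, 27.1 and 10.1 CPM in transgenic DSS and 139, 32.9, 13.5 and 55.1 CPM in control DSS libraries, against 169 to 358 and 159 to 198 CPM untreated, so replicate 1 was the highest of both DSS groups. Its interaction was 0.59 ± 0.97 (-1.46 to 2.64), and -0.82 without transgenic DSS replicate 1.

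List medians of differentiated epithelium were near 0. The absorptive colonocyte list had a median of -0.08 over 26 genes. Of these, 2 fell in controls and 7 in transgenic wall, where 16.1% and 18.1% of all genes fell. Slc9a2, a sodium-proton exchanger, and Scnn1b, a subunit of the epithelial sodium channel, fell with DSS in transgenic wall (-0.87 ± 0.21 and -1.10 ± 0.33, adjusted p = 0.00479 and 0.0137) and were at -0.20 ± 0.21 and -0.11 ± 0.32 in controls. Car1, a carbonic anhydrase of colonocytes, was at 1929, 496, 2023 and 1577 CPM in control untreated and 4694, 2089, 5614 and 4000.2 CPM in transgenic untreated libraries, and its interaction was -0.74 ± 0.55 (-1.91 to 0.42). Among 19 goblet cell genes the median was -0.08, with Clca1, a mucus protein, above 0 (1.31 ± 0.59) and Gfi1, a secretory lineage factor, below (-1.31 ± 0.58), and Muc2 was not analysed here. Enteroendocrine and tuft cell genes had a median of -0.10 and epithelial antimicrobial genes 0, with none at an unadjusted p under 0.05 in either. Ihh, the hedgehog ligand that colonocytes send to the stroma, was at 26.1, 43.6, 34.1 and 87.1 CPM in control untreated and 87.5, 111, 113 and 79.9 CPM in transgenic untreated wall. It fell with DSS in transgenic wall to 27.6, 35.6, 61.3 and 59.1 CPM (-1.09 ± 0.31, adjusted p = 0.0113), was at 48.3, 46.8, 58.2 and 51.1 CPM in controls with DSS, and its interaction was -1.19 ± 0.44 (adjusted p = 0.514). Bmp2, a differentiation signal, also lay below 0 (-0.83 ± 0.34), and Rspo2, a stromal Wnt amplifier, above (1.09 ± 0.49).

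Stromal genes rose with DSS in both genotypes. All 27 fibroblast and collagen genes and all 22 endothelial genes rose in both genotypes, against 23.1% of all genes in each. Their median interactions were 0.05 and -0.10, with 1 gene of each list at an unadjusted p under 0.05. Col1a1, the main chain of type I collagen, rose by 1.11 ± 0.23 in controls and 1.32 ± 0.23 in transgenic wall, with an interaction of 0.22 ± 0.32 (-0.46 to 0.89). Sele, the endothelial receptor that slows leukocytes, and Pi16, a fibroblast peptidase inhibitor, lay above 0 (2.24 ± 0.96 and 1.55 ± 0.66) and rose in both genotypes. Enteric neuron and glia genes (median 0.12), smooth muscle and pacemaker genes (0.01) and oxidative phosphorylation genes (0.02) had none at an unadjusted p under 0.05, and the smooth muscle median was -0.40 in the first file set. Matrix remodelling genes also had none, with a median of 0.21 and 15 of 23 above 0, but without control DSS replicate 4 the median was 0.89, 21 of 23 lay above 0 and 9 were at that p. Their median was 0.91 in the first file set, with 8 genes at that p, and -0.19 without transgenic DSS replicate 1. Complement and coagulation genes had a median of 0.27 and none at that p, against 4 without control DSS replicate 4 and 5 in the first file set. Nos2, the inducible nitric oxide synthase, and Il1b, an inflammatory cytokine, rose in both genotypes with interactions of 0.04 ± 0.60 and 0.02 ± 1.13, and their intervals ran over -1.24 to 1.32 and -2.37 to 2.40.

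Adipocyte genes had the largest median interaction of the 37 lists, 1.09, with 13 of 17 above 0. At an unadjusted p under 0.05 there were 6 (35.3%, against 7.96% of all genes). Without control untreated replicate 2 none was at an unadjusted p under 0.05, 9 of 17 lay above 0 and the median was 0.23. With voom, too, none was at that p (median 0.28). Plin1, which coats lipid droplets, was at 0.191, 8.14, 0.0112 and 0.209 CPM in control untreated and 1.57, 0.281, 0.223 and 0.0167 CPM in transgenic untreated libraries. After DSS the level of Plin1 was 0.766, 0.227, 1.16 and 0.624 CPM in controls and 1.91, 3.91, 6.35 and 4.77 CPM in transgenic wall, which did not overlap, and its interaction was 4.80 ± 1.82 (adjusted p = 0.537). Lep, which encodes leptin, was at 0.0866, 4.62, 0.0112 and 0.0174 CPM in control untreated, 0.495, 0.0457, 0.0318 and 0.0167 CPM in transgenic untreated, 0.0919, 0.0682, 0.302 and 0.357 CPM in control DSS and 0.968, 0.564, 2.07 and 0.715 CPM in transgenic DSS libraries. The 5 adipocyte markers summed to 29.8 to 265 CPM in control untreated, 25.1 to 138 CPM in transgenic untreated, 47.6 to 141 CPM in control DSS and 144 to 288 CPM in transgenic DSS wall, all above 0 in every library. Scd1, a fatty acid desaturase, was at 79.1, 449.6, 58.6 and 90.5 CPM in control untreated wall, where replicate 2 again lay highest, and 112, 182, 148 and 255 CPM in transgenic DSS wall, with an interaction of 2.04 ± 0.75 (adjusted p = 0.514). How much fat each piece of wall carried is not given, and its part in these values was not tested.

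**Figure D5:**
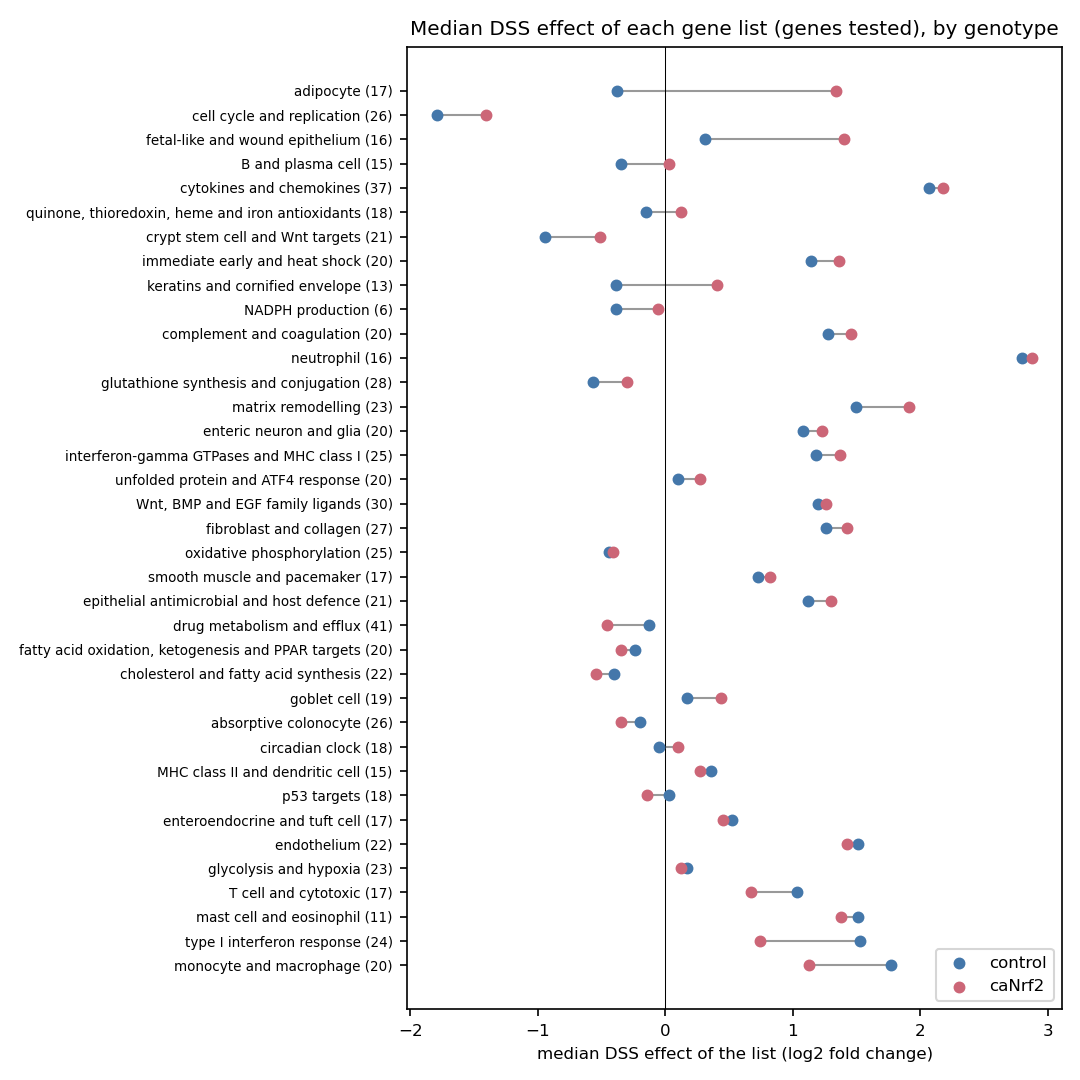
Median DSS effect (x axis, log2 fold change) of each of the 37 gene lists in control (blue) and transgenic (red) wall, ordered by the median interaction of the list, with the number of tested genes in brackets. Adipocyte (-0.38 and 1.34), fetal-like and wound epithelium (0.31 and 1.40), keratin (-0.39 and 0.41), type I interferon (1.53 and 0.74) and macrophage (1.77 and 1.13) lists have the longest lines.

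Metabolic lists had medians near 0 with single genes apart. Cholesterol and fatty acid synthesis genes had a median of -0.08. At an unadjusted p under 0.05 there were 5 of 22 (22.7%, against 7.96% of all genes), 2 above and 3 below 0. Mvk, a kinase of the cholesterol pathway, lay below 0 (-0.79 ± 0.25) and fell with DSS in transgenic wall (-0.75 ± 0.18, adjusted p = 0.00387). Among 20 genes of fatty acid oxidation, ketogenesis and PPAR targets the median was -0.03. Pdk4, which shuts pyruvate out of oxidation, was at 8.87, 11.6, 9.96 and 8.99 CPM in control untreated and 62.04, 40.03, 21.7 and 10.4 CPM in transgenic untreated libraries, and its interaction was -1.59 ± 0.61 (adjusted p = 0.542). Ppargc1a, a coactivator of mitochondrial genes, fell with DSS in transgenic wall (-1.01 ± 0.30, adjusted p = 0.0149) and was at 0.03 ± 0.30 in controls. Of 23 glycolysis and hypoxia genes 17 lay below 0 (median -0.11), and Adm, a vasodilator peptide gene, lay above. Adm was at 9.53, 10.7, 13.5 and 10.8 CPM in control untreated, 16.9, 6.75, 7.89 and 24.8 CPM in transgenic untreated, 7.14, 12.7, 20.6 and 20.4 CPM in control DSS and 24.6, 30.9, 92.7 and 58 CPM in transgenic DSS wall, and it rose with DSS in transgenic wall (1.88 ± 0.45, adjusted p = 0.00428). Mast cell and eosinophil genes had a median of -0.29 over 11 genes, with Prg2, an eosinophil granule protein, below 0 (-2.02 ± 0.80).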

How the data were processed

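RNA from 16 mouse colon wall samples had been sequenced on an Illumina platform, and RSEM 1.2.11, FastQC and the mm10 build are named in the submitters' processing notes. Per the file headers, each deposited file gives an expected count, a TPM value and an FPKM value for each of 30383 transcripts, with gene symbol and position (1-based as printed here). The TPM and FPKM columns deposited by the authors were not used. Expected counts (39.2% not whole) were summed over the transcripts of each of 23329 gene symbols and rounded to whole numbers. No 2 libraries of a group agreed within sampling noise over 24 pairs, where the lowest chi-square per gene was 24.

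Genes passing edgeR's filter on low counts (16074) were scaled by TMM and fitted with edgeR 4.0.16 (R 4.3.3) as 4 groups of 4 libraries, using quasi-likelihood tests for 5 contrasts: the interaction, the DSS effect in each genotype and the genotype effect in each treatment. P-values are two-sided and Benjamini-Hochberg adjusted over all genes tested, "called", "passed", "rose" and "fell" mean an adjusted p below 0.05, and an interval is the 95% interval of the fit. CPM are edgeR's TMM-scaled counts relative to library size. Depth was 22823662 to 105029745 counts in control untreated, 21493139 to 154335999 in transgenic untreated, 20232317 to 44483251 in control DSS and 27500284 to 43318925 in transgenic DSS libraries. Counts near 0 limit the precision of scarce genes.

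The members and gene lists were chosen with earlier results of these data known. Named genes were the 15 of smallest interaction p in each direction with a group mean of at least 1 CPM, up to 3 genes per list of smallest p among those with an unadjusted p below 0.05, up to 10 genes called by DSS in opposite directions, and 15 NRF2 target and DSS response genes whatever their values. Members that lay within the range of their list may be left out. Isg15, Gclm and D4Wsu53e are exceptions. The 37 lists are described by counts and medians. The alternatives were DESeq2 1.42.0, limma 3.58.1 voom with quality weights, DESeq2's size factors, no filter on low counts, a filter of at least 1 CPM in at least 4 libraries, a replicate block, a term for the number that begins each file's name, the 12 libraries with the first such number, all 24 libraries in the fit, and leaving out each library in turn. Leaving out 2 libraries together was added after seeing the data. Scripts were tested on simulated data. Promoter sequences came from RefSeq on GRCm38.p6, matched by symbol for 11271 of the genes tested.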

Additional observations from a re-analysis of the deposited data

Results flagged for a closer look

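Within 208 groups of 4 libraries (52 of the genes named in the text, 4 groups each), 17 (8.17%) held a library whose gap to the nearest other library divided by the group's range exceeded Dixon's 95% critical value. That value marks about 1 in 20 groups by chance where values are normally distributed. CPM cannot fall below 0 and need not be so distributed, so the chance rate here is not known. Genes of 1 library are also not independent.

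Control DSS replicate 4 stood apart in 5 genes. It was the highest of its group for Nfil3 (76.1 CPM), Ccl7 (16.6 CPM), Ccl2 (24.2 CPM), Il1b (113 CPM) and Col1a1 (365 CPM). Transgenic DSS replicate 1 was the highest of its group for Mki67 (182 CPM), Ccl7 (12.4 CPM) and Il1b (55.1 CPM). Control untreated replicate 2 was the highest of its group for the adipocyte genes Lep (4.62 CPM) and Plin1 (8.14 CPM) and for Scd1 (449.6 CPM). Transgenic untreated replicate 1 was highest for Lep (0.495 CPM) and Plin1 (1.57 CPM) and lowest for S100a8, which is listed there at 0 CPM. Transgenic untreated replicate 4 was lowest for Dapp1 (21.5 CPM) and highest for Il1b (2.89 CPM). In control DSS wall, replicate 1 was highest for Gsta3 (12.5 CPM).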

How the results depend on the processing

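The count of interaction calls (0) depended on the tool and the libraries. It was 36 with DESeq2, 113 with voom and quality weights, 98 in the 12 libraries of the first file number, 33 without both libraries named above, and 0 to 93 when 1 library was left out, with 93 without control untreated replicate 4 and 2 without transgenic untreated replicate 4. It was 0 with DESeq2's size factors, without the filter, with a filter of at least 1 CPM in 4 libraries, with a term for the file number and with all 24 libraries. DSS calls stayed within 1.5 times except voom in controls (9501). Genotype calls in untreated wall (36) became 233 with DESeq2, 2491 with voom, 19 with the file number term, 404 in the 12 libraries, 188 without both libraries and 5 to 320 with 1 library left out. In DSS wall (15) they became 43 with DESeq2, 0 with voom and in the 12 libraries, 26 without both libraries and 0 to 36 with 1 library left out. The cause was not tested.

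With the replicate number as a block, 0 interactions, 7 genotype effects in untreated wall and 0 in DSS wall passed. Deviations from the group means showed little sign of pairing by number, though such a check cannot exclude a pairing. Of 24 same-number pairs 3 had deviations correlated over 0.1 (range -0.33 to 0.29), and 2 of 16 libraries correlated best with their own number.

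Of 2464 interaction values of 95 named genes, 2290 kept sign and side of the threshold, 115 newly passed and 59, in 7 genes, changed sign. These genes lay near 0 apart from Mki67, whose sign changed only without transgenic DSS replicate 1. Slc7a11 was 0.04 with DESeq2, 0.36 with voom, 0.03 with DESeq2's size factors and in the 12 libraries, 0.01 without the filter and with the replicate block, 0.06 with all 24 libraries and -0.35 to 0.37 with 1 library left out. Nfe2l2 was 0.02 with DESeq2 and with its size factors, 0.12 in the 12 libraries, 0.04 with all 24 and -0.20 to 0.14 with 1 left out. Hmox1 was 0.08 in the 12 libraries, 0.02 without both libraries and -0.33 to 0.20 with 1 left out. Nos2 was -0.08 with voom, -0.13 without both libraries and -0.21 to 0.45 with 1 left out. Il1b was -0.59 without both libraries and -0.97 to 1.68 with 1 left out. With 1 left out Lgr5 ranged over -0.36 to 0.06 and Mki67 over -0.82 to 1.42. Counts near 0 limit Gdf5, Krt6a, Lep and Plin1.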
